A study of Mus musculus with 12 samples.

Results

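Genes for voltage-gated sodium, calcium and potassium channels and their close relatives were examined in HT22 cells, a mouse hippocampal neuronal cell line, with and without mesaconitine (MA), a diterpenoid alkaloid of Aconitum plants. The members were all genes of the expression table whose symbol begins with Scn, a number and a or b, or with Cacna, Cacnb, Cacng, Kcn, or Hcn and a number. This gave 142 of 25239 genes, and 6 of the 2643 m6A peaks carried the name of a member. The rule reads symbols only and no measured value. The symbols also take in potassium channels that voltage does not gate (the Kcnj, Kcnk and Kcnn genes), auxiliary subunits and a few noncoding RNAs, so the members are a family by name and not a list of voltage sensors alone.

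The study compared HT22 cells of wild type genotype exposed to 800 μM MA for 72 h with HT22 cells kept for the same time at 0 μM MA, and MA was dissolved in dimethyl sulfoxide. Each condition gave 3 input libraries of fragmented polyadenylated RNA and 3 libraries of the same kind of RNA after immunoprecipitation (IP) with an anti-m6A antibody, 12 libraries in all. All of them come from 1 cell line, and the labels do not say whether replicates were separate cultures. The expression table holds 1 base mean per gene, which is a mean normalised read count over libraries with no split by condition, and the peak table holds 1 number of reads per peak for each of the 4 kinds of library, pooled over its 3 replicates. The error between replicates could therefore not be computed for any value below, no test between MA and control was possible, and the intervals given cover counting error only.

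Voltage-gated sodium channels open on depolarisation and carry the rising phase of the action potential, calcium channels turn the voltage change into calcium entry, and potassium channels bring the membrane back to rest. Each is built around a pore-forming alpha subunit, and smaller auxiliary subunits set how many channels reach the membrane and how they gate. Aconitine-type alkaloids are known for binding the alpha subunit of sodium channels and holding it open, which is why these genes are of interest in cells given MA.

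The sequences below are the exonic parts of the peaks that lie in coding sequence throughout, with exons taken from the annotation used here. They are shown because they are the stretches of channel mRNA inside the m6A peaks that the authors called. They were read from the GRCm38.p6 assembly of RefSeq, the same assembly as mm10, which the authors used, and are written 5′ to 3′ on the transcribed strand with introns removed. Capitals mark each match to RRACH, the usual m6A motif, in 5 letters: A or G, A or G, A, C, and A, C or T. Only the transcribed strand was searched, and matches that overlap were joined.
Cacna1c: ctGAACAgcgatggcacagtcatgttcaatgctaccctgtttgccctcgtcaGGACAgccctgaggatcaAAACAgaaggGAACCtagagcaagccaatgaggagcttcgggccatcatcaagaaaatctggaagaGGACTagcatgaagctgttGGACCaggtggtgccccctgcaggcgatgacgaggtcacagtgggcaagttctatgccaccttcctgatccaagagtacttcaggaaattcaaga
Kcnh1: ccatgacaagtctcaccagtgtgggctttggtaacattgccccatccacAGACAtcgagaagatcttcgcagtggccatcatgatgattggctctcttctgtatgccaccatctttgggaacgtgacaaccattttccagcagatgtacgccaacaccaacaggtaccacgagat
Kcnn4: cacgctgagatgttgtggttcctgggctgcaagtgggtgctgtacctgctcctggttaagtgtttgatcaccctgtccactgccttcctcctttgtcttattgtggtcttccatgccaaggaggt
Cacnb1: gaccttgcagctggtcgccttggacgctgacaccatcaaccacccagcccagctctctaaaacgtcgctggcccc

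The Cacna1c peak lies on chromosome 6 from 118604496 to 118610566 on the minus strand and covers 250 coding bases of exons 38, 39 and 40 of a transcript with 47 exons. Cacna1c encodes the pore of an L-type calcium channel, and this stretch, 72.8% to 76.6% of the way along the coding sequence, runs into the IQ motif of its C-terminal tail, where calmodulin binds. The Kcnh1 peak, on chromosome 1 from 192337737 to 192413098 on the plus strand, covers 175 coding bases of exons 7 and 8 of 11. Kcnh1 encodes a slow voltage-gated potassium channel, and the stretch includes the codons of its selectivity filter, the narrow part of the pore that admits potassium. The Kcnn4 peak, on chromosome 7 from 24370563 to 24374763 on the plus strand, covers 125 coding bases of exons 1 and 2 of 9, near the start of a potassium channel that calcium opens through calmodulin. The Cacnb1 peak, on chromosome 11 from 98009315 to 98009389 on the minus strand, covers 75 coding bases within exon 11 of 14, in the guanylate kinase-like domain with which a calcium channel beta subunit holds its alpha subunit. With introns, the peaks of Cacna1c, Kcnh1 and Kcnn4 span 6071, 75362 and 4201 bases. Where in a peak its reads lie is not given, so they cannot be assigned to the coding bases alone.

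The other two peaks lie on beta subunits of potassium channels, cytosolic proteins related to aldo-keto reductases. The Kcnab2 peak, on chromosome 4 from 152391219 to 152391268 on the minus strand, covers 50 bases of the 3′UTR in exon 16 of 16, which starts 1770 bases past the last coding base and ends 475 bases before the transcript does. The Kcnab1 peak, on chromosome 3 from 65109917 to 65188201 on the plus strand, is given as a single block of 78285 bases. Its exonic part is 175 bases, 76 in one exon and 99 in another. No Kcnab1 transcript of the annotation holds both ends of the peak, since the first base lies in an exon of 2 transcripts and the last base in an exon of 1 further transcript, so these reads cannot be given to one isoform.
Kcnab1, chr3:65109917-65109937: gcctggGGACCttcacccctc
Kcnab1, chr3:65109964-65109988: accgcaaagcAGACTggcatgaaat
Both lines are windows around a match in the first exon part of the Kcnab1 peak, which is coding in 1 of those 2 transcripts. Windows are shown because the exonic part of this peak cannot be given as 1 coding run.

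RRACH occurred in 3 of the 6 peaks, with 6 matches in Cacna1c, 4 in Kcnab1 and 1 in Kcnh1, and in 63.8% of the 2583 peaks of the whole table that could be placed on exons of the named gene. Cacnb1, Kcnab2 and Kcnn4 held none. The share depends on length, since 49.4% of the 1013 peaks of 50 bases held a match, 63.5% of the 498 peaks of 75 bases, 82.0% of the 161 peaks of 125 bases, 92.7% of the 246 peaks of 175 bases and all 14 peaks of 250 bases. With T also allowed at the first letter, Cacnb1 held a match as well. A match says only that these letters are present in the window.

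Most channel genes stayed under the level taken as expressed. That level, a base mean of at least 50, was reached by 20 of the 142 members, or 14.1%, against 43.6% of all genes of the table. A further 40 members had a base mean above 0 and under 50, and 82 were listed at 0, which is 57.7% of the members against 35.9% of all genes. Among the expressed members the median base mean was 282, and over all expressed genes it was 1409. Just inside the threshold lay Cacna1e with a base mean of 52.8, and just outside it Kcnn1 with 42.0 and Kcnmb2 with 39.9.

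**Figure D1:**
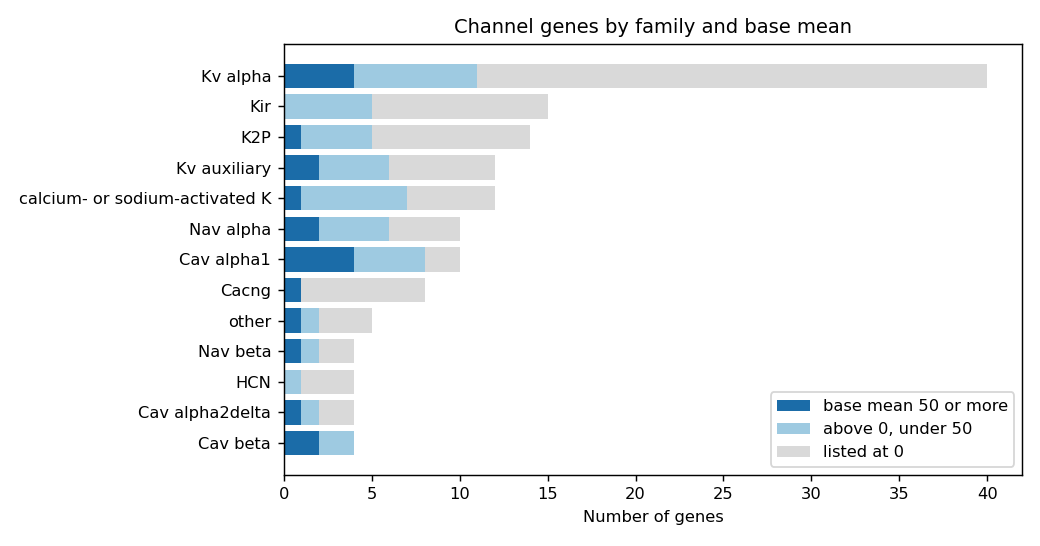
Number of channel genes in each family, split into genes with a base mean of at least 50, genes above 0 and under 50, and genes listed at 0. Kv alpha subunits are the largest family with 40 genes, 29 of them listed at 0, and no Kir or HCN gene reaches 50.

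Of the 10 genes named as sodium channel alpha subunits, the class that holds the known targets of aconitine-type alkaloids, 2 were expressed. Scn3a, a neuronal sodium channel known for its high level in the developing brain, had a base mean of 672, and Scn2a, a main sodium channel of excitatory neurons and their axons, one of 274. Per kilobase of merged exons, the scale on which levels of different genes are compared here, these were 54.0 and 21.5, so the level of Scn3a was the higher on both scales. A further 4 genes lay between 0 and 50, among them Scn7a at 6.04, Scn10a at 4.55 and Scn9a at 0.451. Scn1a and Scn8a, which are main sodium channels of adult neurons, were among the 4 listed at 0. Of the 4 beta subunits, adhesion proteins that flank the pore, 1 was expressed, and Scn3b had a base mean of 0.484. No peak of the table used here carried the name of a sodium channel gene, and peaks outside that table were not analysed here.

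Calcium channel genes held the member with the highest level. Cacnb3, a beta subunit that carries alpha subunits to the membrane, had a base mean of 3942 and 983 per kilobase, and supplied 32.5% of the summed base means of all 142 members. Against the median of all genes with a base mean above 0, 133 per kilobase, 2 members lay above, Cacnb3 and Kcnab2. Against the median of the 10843 expressed genes with a known length, 305 per kilobase, Cacnb3 alone did, at percentile 81.8 of them. Cacnb1 had a base mean of 409 and 90.3 per kilobase. Of the 10 pore-forming genes, 4 were expressed. Cacna1a, the P/Q-type channel of presynaptic endings, led with a base mean of 1047 and 91.7 per kilobase, about the same level per kilobase as Cacnb1. The T-type gene Cacna1g followed with a base mean of 319 and 31.4 per kilobase, then Cacna1c with 427 and 20.1, and the R-type gene Cacna1e with 52.8 and 2.09. Cacna2d1, whose product binds the outside of the channel and is the receptor of gabapentin, had a base mean of 457 and 36.8 per kilobase. Cacng7, of a family best known for guiding AMPA receptors, had 166 and 68.1 and was the only expressed gene among the 8 of its family.

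Potassium channel genes were mostly low. Of 40 genes for voltage-gated alpha subunits 4 were expressed, with Kcnh2, the channel of the cardiac rapid delayed rectifier current, at a base mean of 290 and 59.9 per kilobase. Kcna4 and Kcnd1, both channels of fast inactivating currents, had base means of 97.5 and 58.4. Per kilobase these were 20.2 and 11.0. Among the auxiliary genes, Kcnab2 had a base mean of 1234 and 221 per kilobase, the highest of all potassium channel genes per kilobase, and Kcnab3 had 145 and 50.5. Kcnn4 stood at 166 and 32.5 per kilobase and was the only expressed gene of the 12 for channels that calcium or sodium activates. Kcnk2, a background potassium channel that responds to stretch, was the only expressed gene of 14 of its kind, with 59.1 and 11.96 per kilobase. No inward rectifier (Kcnj, 15 genes) and no HCN gene (4 genes) reached a base mean of 50, and the highest of the inward rectifiers were Kcnj15 at 22.2 and Kcnj13 at 20.04.

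Kcnq1ot1 had the second highest base mean of the members, 1831, but codes for no protein. It is the long RNA read in the opposite direction to Kcnq1, known for silencing its neighbours on the paternal chromosome. Its length of 93092 bases brought it to 19.7 per kilobase. Kcnq1 itself was listed at 0.

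**Figure D2:**
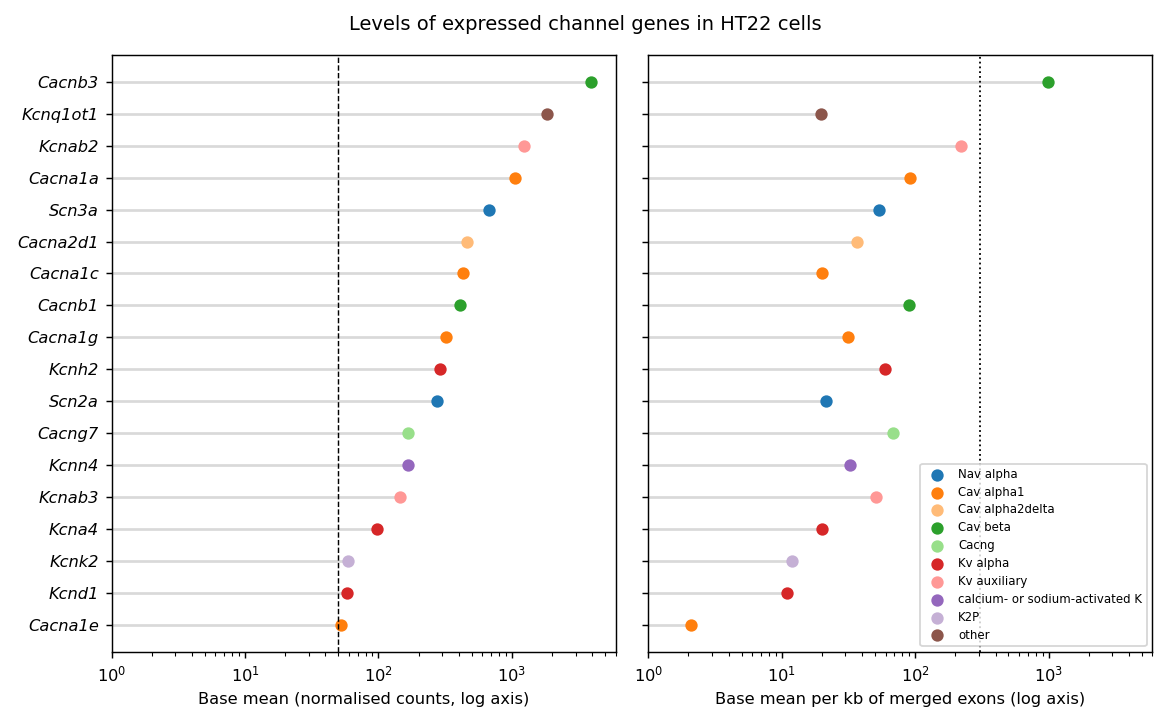
Base mean (left) and base mean per kilobase of merged exons (right) of 18 of the 20 expressed channel genes, 1 point per gene over all libraries, both on log axes and coloured by family. The dashed line marks a base mean of 50 and the dotted line the median of all expressed genes, 305 per kilobase, which only Cacnb3 passes, while Kcnab2 also lies above the median of all genes above 0, 133 per kilobase, which is not drawn.

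The neuronal identity of the line was checked against markers. Of 12 neuronal markers, Tubb3 with a base mean of 473 and Eno2 with 534 were expressed, 4 lay under 50 and 6 were listed at 0, among them Map2, Snap25 and Dcx. All 5 fibroblast markers were expressed, with base means of Col1a1, Col1a2 and Col3a1 each above 100000. Per kilobase, the fibroblast markers ran from 24.9 for Dcn to 15261 for Col1a1, while Tubb3 had 253 and Eno2 113. Of 5 astrocyte, 5 oligodendrocyte and 5 microglia markers, 1, 0 and 2 were expressed. These were the astrocyte marker Slc1a3 at 134 per kilobase and the microglia markers Tmem119 at 131 and Aif1 at 41.9. Beside all these counts, 43.6% of all genes were expressed. Most of the neuronal markers were thus under 50 or listed at 0 in these libraries, and how this bears on the low channel levels was not tested.

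A list of 34 other genes that act on these channels, among them anchors, calcium sensors and ubiquitin ligases, had 18 genes at a base mean of at least 50, which 43.6% of all genes reached, 10 above 0 and under 50, and 6 listed at 0. Highest per kilobase were the calmodulin genes Calm2 at 34448 and Calm3 at 6414, and high levels were also found for Nedd4, a ligase that removes channels from the membrane, at 4670 and the kinase gene Sgk1 at 1544. Gem, a small GTPase that holds back calcium channels, reached 929. Ank2 and Ank3, the ankyrins that anchor sodium channels and their partners, had 133 and 67.5 per kilobase, both above Scn3a. Of the fibroblast growth factor homologues that bind sodium channels, Fgf11 had a base mean of 55.0, Fgf14 one of 18.2 and Fgf12 one of 0.808, and Fgf13 was listed at 0.

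The comparison of MA with control rests on the reads per peak. Over all 2643 peaks, control cells gave 288659 input and 267002 IP reads and MA-treated cells 214778 input and 359889 IP reads, so the ratio of IP to input reads was 0.925 in control and 1.68 after MA. For each peak this ratio was divided by that over all peaks of the same condition, with 0.5 added to each number of reads, and the result is called the relative enrichment. It is given on the log2 scale, on which 0 is the ratio over the summed reads of all peaks. The division takes out the step from 0.925 to 1.68, so a rise or fall shared by all peaks cannot appear below. Each difference is relative to the other peaks, and whether m6A changed in general was not tested. Among the 2643 peaks used here (others were not analysed), 4 of the 20 expressed members (20%) had a peak against 17.8% of all expressed genes. With 4 genes and no test, nothing is read from these shares. The IP and input come from bulk cells, so fewer cells and less RNA per cell cannot be told apart in them.

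Kcnab2 was the only member whose relative enrichment was more than 1.5-fold higher after MA. Its peak held 50 input and 38 IP reads in control, and 18 input and 55 IP reads after MA. Per 100000 reads over all peaks of the same pool, these were 17.3 and 14.2 in control and 8.38 and 15.3 after MA, so the lowest value was that of MA input while both IP pools were close to each other. The relative enrichment was -0.28 in control (95% interval -0.88 to 0.33) and 0.84 after MA (0.08 to 1.60), a difference of 1.12 (0.15 to 2.09), or 2.17-fold. Over all peaks, 29.1% were more than 1.5-fold higher by the same measure and 24.2% had an interval wholly above no difference, and the difference of Kcnab2 stood at percentile 84.5 of all peaks. It rests on 18 reads of MA input.

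Cacnb1 had the next largest difference among the peaks on expressed genes. Its peak held 104 input and 109 IP reads in control, and 106 input and 141 IP reads after MA. In the same order, these were 36.0, 40.8, 49.4 and 39.2 per 100000, so MA input stood above the other pools. The relative enrichment was 0.18 in control and -0.33 after MA, 1.43-fold lower, and the interval of the difference of -0.51 ran from -1.04 to 0.02. This is lower only relative to all peaks. In numbers of reads, IP exceeded input in both conditions, and by more after MA. Over all peaks the ratio of IP to input reads rose too, from 0.925 to 1.68. Numbers of reads also depend on the depth of the libraries, so no rise in m6A is read from them.

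For Cacna1c and Kcnn4 no difference in relative enrichment was detectable at this depth. The Cacna1c peak held 77 input and 68 IP reads in control, and 72 input and 121 IP reads after MA, or 26.7, 25.5, 33.5 and 33.6 per 100000. As shares of the reads over all peaks, input and IP were thus alike within each condition. Both shares were higher after MA, but no interval was computed for them, so no change is read from this. In numbers of reads, IP was below input in control and above it after MA, as it was over all peaks, with ratios of 0.925 and 1.68. Relative enrichment was -0.07 in control and 0.00 after MA, and the interval of the difference of 0.07 ran from -0.56 to 0.70. The Kcnn4 peak was the best covered, with 177 input and 158 IP reads in control and 129 input and 198 IP reads after MA, or 61.3, 59.2, 60.1 and 55.0 per 100000. These 4 values differ little, and the difference in relative enrichment was -0.08, with an interval of -0.52 to 0.37, which corresponds to 0.696-fold to 1.29-fold.

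**Figure D3:**
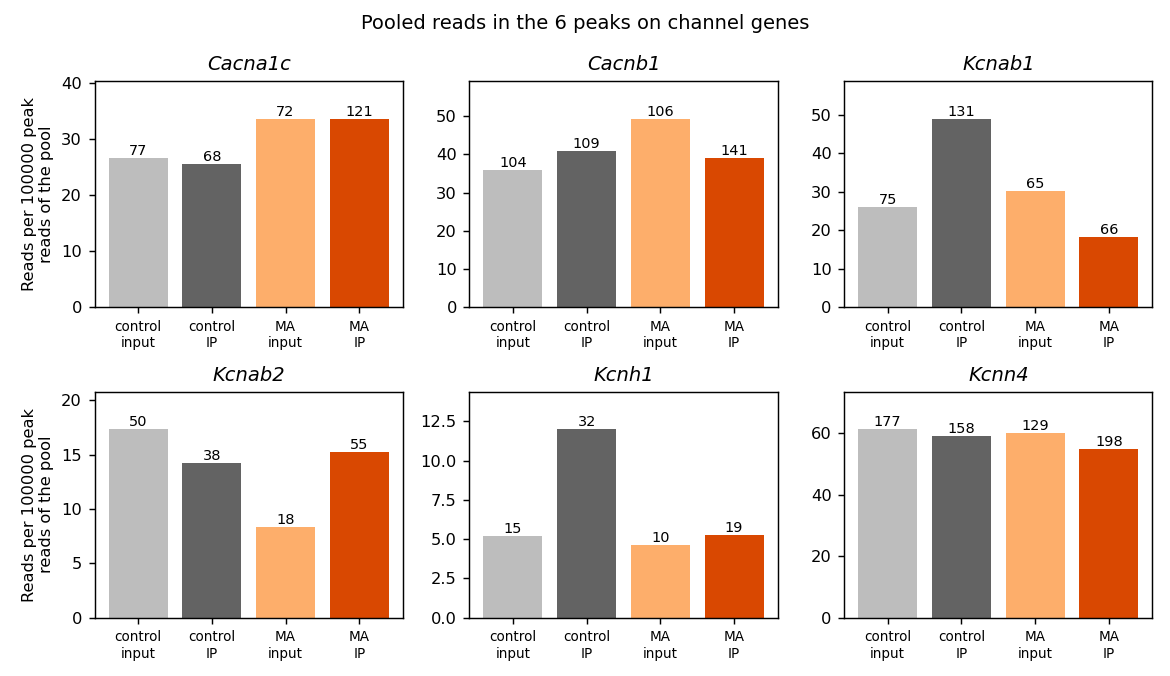
Reads in each of the 6 peaks on channel genes in the 4 pools of 3 libraries, as reads per 100000 reads over all peaks of the pool (bar height) and as the number of reads (printed on each bar). Kcnab2 is lowest in MA input at 8.38 and Kcnab1 highest in control IP at 49.1, while the 4 bars of Kcnn4 lie between 55.0 and 61.3.

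Kcnab1 and Kcnh1 lie under the base mean of 50 at which changes are read, so their peaks are described only. The Kcnab1 peak held 75 input and 131 IP reads in control, and 65 input and 66 IP reads after MA, or 26.0, 49.1, 30.3 and 18.3 per 100000. Control IP was the highest of the 4 and MA IP the lowest, while both input pools were close. Relative enrichment was 0.91 in control (0.50 to 1.32) and -0.72 after MA (-1.22 to -0.23), 3.11-fold lower, and the interval of the difference of -1.64 ran from -2.28 to -0.996. Over all peaks, 21.4% had an interval wholly below no difference, and 24.1% were more than 1.5-fold lower. Kcnh1 held 15 input and 32 IP reads in control, and 10 input and 19 IP reads after MA, with a difference of -1.03 and an interval of -2.42 to 0.36 that includes 0.

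The gene levels and the peak reads of these last genes do not match. Kcnab1 had a base mean of 14.2, which amounts to 85.1 normalised reads if it is taken over the 6 input libraries, for the whole gene, while the input reads of its peak alone numbered 140. Kcnh1 was listed at 0 with 25 input reads in its peak. Both peaks span introns, and whether intron reads were counted in them was not tested. Of the 2575 peaks whose single gene is in the expression table, 103 lay on a gene listed at 0. If the base mean is again taken over the 6 input libraries, 199 of the 2575 held more input reads than their gene level gives. A value of 0 in the table is therefore not taken here to mean that a gene is silent, for the channels listed at 0 included.

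Of the 4 peaks on expressed genes, 1 was more than 1.5-fold higher after MA and 0 were more than 1.5-fold lower, with 29.1% and 24.1% of all peaks so called. With the peaks of Kcnab1 and Kcnh1, which are not read as changes, the numbers were 1 and 2 of 6. The median difference was -0.30 over the 6 peaks and 0.05 over all peaks, whose quartiles were -0.56 and 0.71, and it was -0.01 over the 4 peaks on expressed genes.

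**Figure D4:**
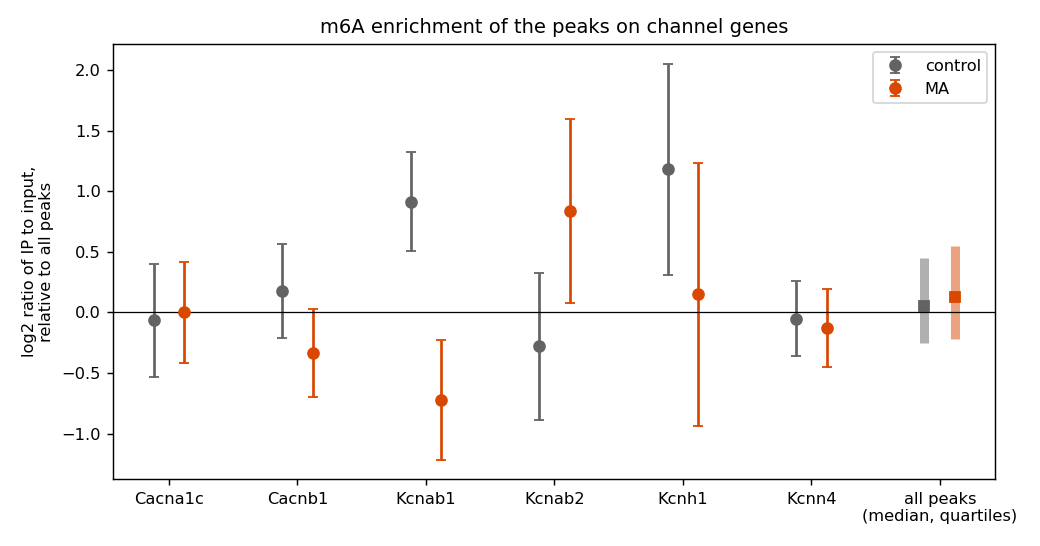
Relative enrichment (log2 ratio of IP to input reads against that of all peaks) of the 6 peaks in control and MA, with 95% counting intervals, beside the median and quartiles over all 2643 peaks. The intervals of control and MA are apart for Kcnab1, at 0.91 and -0.72, and overlap for the other 5 genes.

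Among the 34 genes that act on channels, 7 carried 8 peaks, of which 1 was more than 1.5-fold higher after MA, where 29.1% of all peaks were, and 3 were more than 1.5-fold lower, where 24.1% were. Their median difference was 0.10. Nothing particular to the list is read from these counts. Both peaks of Ank2 had an interval above no difference, as did 24.2% of all peaks. The one on chromosome 3 from 127032274 to 127038756 held 159 input and 109 IP reads in control, and 108 input and 243 IP reads after MA, a difference of 0.85 (0.37 to 1.33). The other, from 127077556 to 127104766, held 189 input and 143 IP reads in control, and 156 input and 319 IP reads after MA, a difference of 0.57 (0.16 to 0.99). Ank2 encodes ankyrin-B, a membrane scaffold, and its IP reads were higher after MA in both peaks. In Tpcn1, a two-pore cation channel of endosomes and lysosomes, the peak on chromosome 5 from 120534332 to 120534381 held 93 input and 142 IP reads in control, and 92 input and 111 IP reads after MA, a difference of -1.20 (-1.74 to -0.65). The remaining peaks lie on Ank3, Gem, Camk2g, Sgk1 and Dpp6, a partner of the Kcnd channels that was listed at 0 in the expression table. Dpp6 held 18 input and 37 IP reads in control, and 13 input and 16 IP reads after MA, and for Ank3, Gem, Camk2g and Sgk1 the interval included no difference. The interval of Dpp6, -2.90 to -0.27, lay below it.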

How the data were processed

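RNA of HT22 cells was sequenced as input and after anti-m6A IP, in 3 libraries each of MA-treated and control cells. The authors used fastp on the reads, HISAT2 for alignment on mm10, and StringTie and DESeq2 for expression. Per gene, the authors deposited a base mean, which is a signal: the mean over libraries of counts divided by size factors, and which libraries entered it is not stated. Per peak, the authors deposited counts from exomePeak2 that are pooled over replicates. Versions of these tools are not given in the sources used here, nor is the use of the molecular identifiers that the library kit adds. Both tables also hold fold changes, their errors, ratios of IP to input, scores and p-values of the authors' own comparisons, which were not used, so no expression difference between MA and control is reported. Columns of single libraries left out numbered 0.

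Groups were taken from the sample titles. Gene lengths and exons came from GENCODE M21 on GRCm38, where 24374 of the 25239 symbols were found and 2583 of 2643 peaks could be placed. Where no transcript held both ends of a peak, all exons of the gene inside it were joined. Counting intervals were taken from the 4 numbers of reads of a peak on the log2 scale, with a pseudocount of 0.5, and the calculation was tested on simulated data. Python 3.11.15, numpy 2.4.6, pandas 2.3.3, pysam 0.24.0 and matplotlib 3.10.9 were used. Whether the peaks deposited by the authors were called over both groups together is not stated in the sources used here. The paper reports more m6A peaks, in total and in each group, than the 2643 used here. Depth of single libraries was not analysed here. Genes named with values are all members with a peak, the expressed sodium channel genes, up to 5 expressed genes per other family and 2 on each side of the base mean of 50. Other genes were named as members of a list or after their values had been seen, such as the sodium channel genes under 50. The members and lists were chosen with earlier results of these data known. Alternatives were other base mean minimums, gene lengths, backgrounds, scalings, pseudocounts, read minimums, folds and motifs. Some genes that the rule for named genes covers are not reported here.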

Additional observations from a re-analysis of the deposited data

How the results depend on the processing

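No paired analysis was possible because the tables hold no values of single libraries, and leaving out a replicate was not possible for the same reason. Of 20 alternatives, 16 left the number of channel genes or peaks within 1.5 times its value or the median difference within its counting interval. With genes of a base mean of at least 50 as the background for the level per kilobase, 1 channel gene lay above the median in place of 2 (Cacnb3, and Kcnab2 against all genes above 0). With at least 20 reads required in each pool, 0 peaks were higher after MA and 1 was lower, since Kcnab2 and Kcnh1 fall under this minimum. With only peaks on genes with a base mean of at least 50, an alternative chosen after seeing the data, 0 peaks were lower. The number of expressed members was 25 at a base mean minimum of 20 and 15 at 100. With 6 peaks and pooled reads, the depth limits what can be seen, and the members with fewer than 20 reads in a pool, Kcnab2 and Kcnh1, have the widest intervals of the 6.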
